A study of Mus musculus with 6 samples.

Results

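Runx proteins, Gata3 and a small set of zinc finger, HMG-box and nuclear receptor factors decide whether a developing T cell becomes a CD4 helper or a CD8 killer cell, and later which helper type a CD4 cell takes up. The 10 genes described here are Runx1, Runx2, Runx3, Cbfb, Gata3, Zbtb7b, Patz1, Tox, Bcl6 and Rora. They were chosen by name, and each matched 1 of the 55487 Ensembl gene identifiers in the deposited tables. The data are RNA sequencing of polyadenylated RNA from naive CD4+ T cells, helper cell precursors that have yet to meet antigen. In 3 libraries the cells were freshly prepared from the gut-draining mesenteric lymph nodes (mLN), and in 3 libraries from the spleen. All mice were wild-type C57BL6/J with no treatment. Neither the age of the mice, nor pooling of animals, nor the way naive cells were purified is given in the labels, which also do not say whether replicates came from separate animals. Each p-value therefore rests on library-to-library spread, and that spread may be technical.

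As background, each Runx protein binds DNA as a pair with Cbfb, a partner that does not itself contact DNA and that makes the binding stronger. In CD8 cells Runx3 helps to silence Cd4, while Zbtb7b, also called ThPOK, holds cells in the CD4 lineage and opposes Runx3. Gata3 acts upstream of Zbtb7b in the thymus and later drives type 2 helper cells, Patz1 (MAZR) acts on the coreceptor loci and represses Zbtb7b, and Tox is needed for CD4 cells to form. Bcl6 directs follicular helper cells, and Rora encodes a nuclear receptor that takes part in forming helper cells that make IL-17.

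RefSeq lists 2 promoter windows for Runx1, 2 for Runx3 and 1 for Runx2 on GRCm38.p6, the assembly that mm10 names. The most upstream promoter windows of the 3 Runx genes, each running from 250 bases before to 50 bases after a transcription start, hold a common stretch of 18 bases. It is shown here because it carries binding words of the Runx family itself, in genes whose transcripts are compared between tissues afterwards. Capitals mark ACCACA, the reverse complement of the Runx word TGTGGT, and TGCGGT, another Runx word; each line reads 5′ to 3′ on the gene's strand.
Runx1, chr16:92826025-92826054, minus strand: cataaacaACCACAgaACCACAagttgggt
Runx2, chr17:44814583-44814612, minus strand: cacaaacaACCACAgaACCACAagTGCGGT
Runx3, chr4:135120503-135120532, plus strand: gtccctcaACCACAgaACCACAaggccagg
The common stretch, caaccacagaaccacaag, occurred in 4 of 32851 RefSeq windows of the same length, searched on both strands. These were the windows of the 3 Runx genes and that of Gm16225, a gene model that starts beside Runx3 on the other strand and whose window covers the same DNA. In Runx1 and Runx2 the lines shown lie after the start, from base 21 to 50 and from base 16 to 45, and in Runx3 before it, from base -142 to -113. Both words were searched on both strands, and at least 1 match to either was held by 22.4% of all windows and at least 2 matches by 2.86%. Of the 14 windows of the 9 members in that table, 4 held a match, with 2 in the upstream window of Runx1, 4 in that of Runx2, 2 in that of Runx3 and 1 in the downstream window of Zbtb7b. The Gata words AGATAA and TGATAA were in none of the 14 windows and in 18.6% of all windows, and a word that is missing from these letters says nothing of the factor. Tox has no window in the table.

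The libraries held between 13205499 and 20054205 expected counts in mLN and between 14224966 and 17862485 in spleen, so that 3 counts correspond to between 0.15 and 0.227 CPM (counts relative to library totals scaled with TMM factors), for counting error only. All 10 markers of naive CD4+ T cells were detected, with a summed level of 5987 to 6120 CPM in mLN and 6427 to 6651 CPM in spleen; 3 of them rose and 4 fell. Cd4 itself averaged 891 ± 12.4 CPM in mLN and 930 ± 45.1 CPM in spleen (SD, n = 3 each). Marker RNA of neutrophils, of monocytes, macrophages and dendritic cells, and of B cells was scarcer in mLN. Neutrophil markers summed to between 0.225 and 1.19 CPM in mLN and between 37.6 and 43.2 CPM in spleen, with Retnlg at 0 in all mLN libraries. All 6 that were tested fell. Markers so near 0 in mLN passed the filter on low counts only through their spleen libraries, so that count was fixed by the filter. Markers of monocytes, macrophages and dendritic cells fell in 7 of 9 cases (28.7 to 35.1 CPM in mLN, 76.9 to 84.4 CPM in spleen; Flt3 at 0 in mLN), and B cell markers in 5 of 9 (10.9 to 17.1 CPM in mLN, 30.5 to 35.0 CPM in spleen). Of the former list, Flt3, Itgax, Tyrobp, Spi1 and Csf1r likewise would not have passed the filter on their mLN libraries alone. Nor would Cd79b and Fcer2a, which are among the B cell markers that fell. CD8 T cell markers changed in 0 of 4 tested cases and summed to 13.7 to 22.2 CPM in mLN and 18.5 to 20.2 CPM in spleen. Among them Cd8a averaged 3.83 CPM in mLN and 1.92 CPM in spleen (adjusted p = 0.0778, edgeR). Cd8b1 averaged 13.3 CPM in mLN and 14.8 CPM in spleen (adjusted p = 0.568, edgeR). Erythroid and megakaryocyte markers changed in 0 of 2 tested cases. Of the stromal and endothelial list only Pecam1 was tested, and it fell. Ribosomal protein genes took 7.83% to 8.64% of mLN counts and 11.4% to 11.6% of spleen counts. Mitochondrial genes took 2.12% to 2.43% in mLN and 3.70% to 4.11% in spleen.

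Of the 10 factors, 9 passed the filter on low counts, and 5 of these were higher in mLN, Runx1, Runx3, Gata3, Patz1 and Tox, while Rora alone was lower. The calls come from edgeR's quasi-likelihood test over 12486 genes at a Benjamini-Hochberg adjusted p under 0.05, which called 29.6% of all tested genes, 16.1% higher and 13.5% lower. Cbfb, Zbtb7b and Bcl6 did not pass. The median log2 fold change of the 9 tested factors was 0.36, against -0.01 for all tested genes. In CPM the mLN values lay wholly above the spleen values for 6 factors and wholly below for 1, against 21.5% and 20.3% of all tested genes, or 41.8% in either direction. In bulk RNA, fewer cells that express a gene and less of its RNA per cell cannot be told apart.

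**Figure D1:**
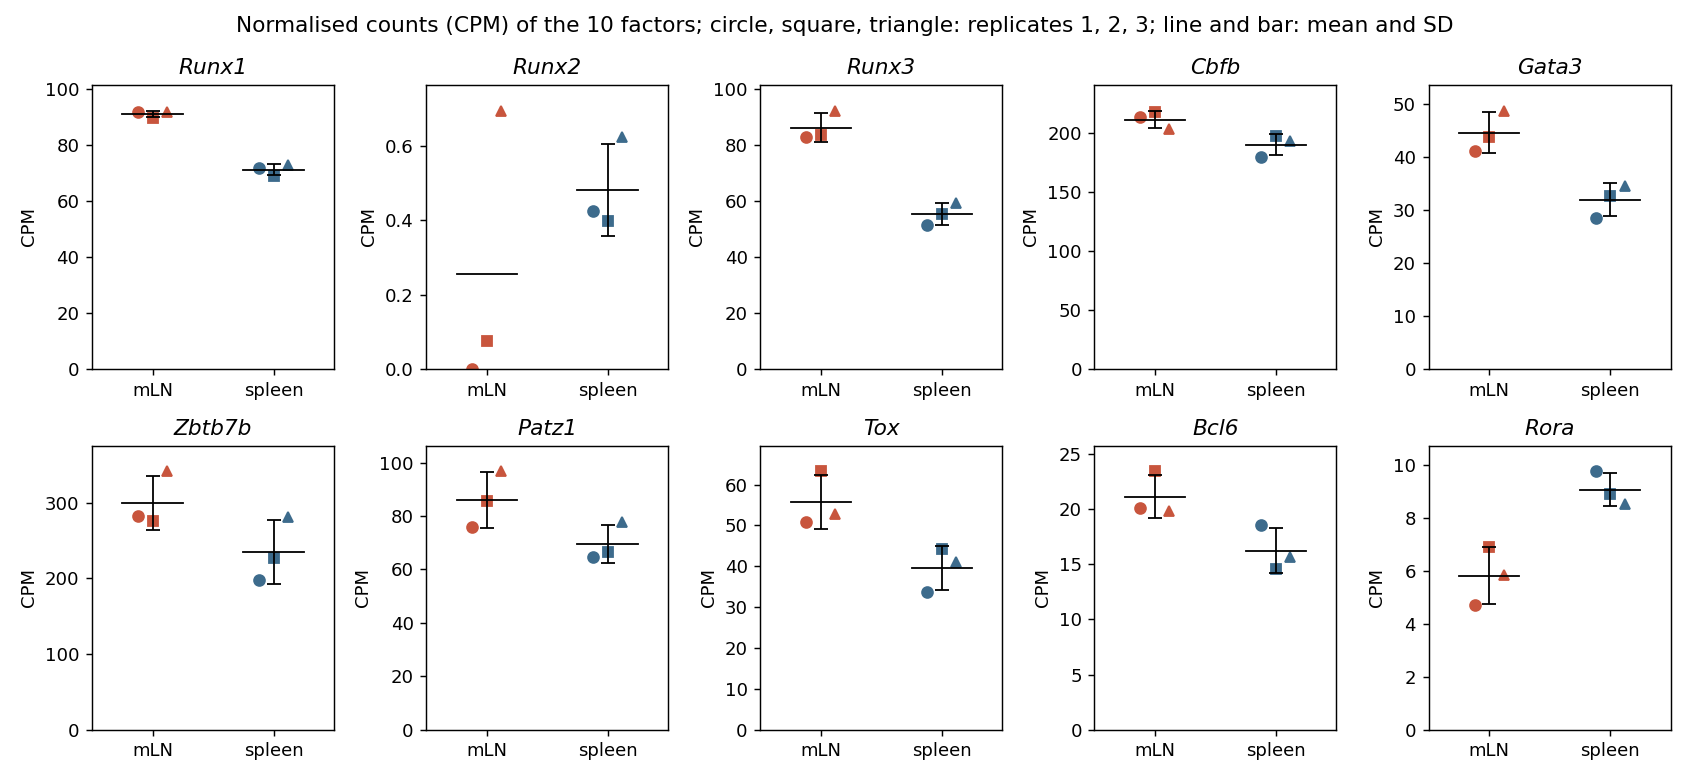
Normalised counts (CPM, vertical axes from 0) of the 10 factors in the 3 mLN and the 3 spleen libraries; each point is a library, horizontal lines are means and bars are SD (no bar is drawn for Runx2 in mLN, where the SD exceeds the mean). The tissues do not overlap for Runx1, Runx3, Cbfb, Gata3, Tox and Bcl6, which are higher in mLN, or for Rora, which is lower in mLN; Zbtb7b and Patz1 overlap.

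Runx3 had the largest rise of the factors in the test as reported, though not with the GC trend removed. It is a protein-coding gene (ENSMUSG00000070691) on the plus strand of chromosome 4 from 135120652 to 135177990. It was at 82.8, 83.7 and 92.3 CPM in mLN replicates 1, 2 and 3, and at 51.3, 55.3 and 59.5 CPM in spleen replicates 1, 2 and 3. Every mLN library was above every spleen library. The change was 1.56-fold (log2 0.64, standard error 0.09, adjusted p = 1.19e-05 in edgeR's test). The log2 change was 0.39 once a trend of each library with GC content was removed (adjusted p = 8.40e-05), where that of Tox was 0.57 and that of Gata3 0.41. Over 20 alternative settings the adjusted p of Runx3 ran from 8.91e-14, with the replicate number as a block, to 0.0350, so the call held in all 20. The part of CD8 T cells, whose markers are given above, in the Runx3 level was not tested.

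Runx1, which in the thymus represses Cd4 before the coreceptors appear and is needed for T cell formation, lies on the minus strand of chromosome 16 from 92601466 to 92826149 (ENSMUSG00000022952). It was at 91.7, 89.8 and 91.8 CPM in mLN and at 71.7, 68.9 and 73.0 CPM in spleen. The replicates of each tissue were close to each other, with SDs of 1.13 and 2.08 CPM around means of 91.1 CPM in mLN and 71.2 CPM in spleen (n = 3 each), and the tissues did not overlap. The rise was 1.28-fold (log2 0.36, standard error 0.08, adjusted p = 0.00180, edgeR). Its log2 change was 0.18 with an adjusted p of 0.116 once a trend of each library with transcript length was removed, and the adjusted p was 0.194 on median-centred log2 TPM. These were the settings that ended the call, in a range from 9.59e-06 to 0.194 over 20 settings.

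Runx2, the bone-forming member of the family (ENSMUSG00000039153, chromosome 17 from 44495987 to 44814797, minus strand), was near the limit of detection. Its expected counts were 0, 1 and 14 in mLN and 6, 7 and 10 in spleen. A single mLN library held nearly all the reads of that tissue, and the highest mLN library exceeded every spleen library. It did not pass the filter, and no fold change is given; without a filter the adjusted p was 0.691 in edgeR's test.

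Cbfb (ENSMUSG00000031885, chromosome 8 from 105170674 to 105217989, plus strand), the partner of all Runx proteins, was at 213, 218 and 203 CPM in mLN and at 180, 197 and 193 CPM in spleen. The tissues did not overlap, but the gap between the nearest libraries was small. The log2 fold change of 0.15 (standard error 0.07) did not pass (adjusted p = 0.0877, edgeR). It passed with the GC trend removed, at a log2 change of 0.28 (adjusted p = 6.77e-05), and on log2 TPM without median-centring, and over 20 settings the adjusted p ran from 6.77e-05 to 0.336.

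Among regulators of the CD4 lineage, Gata3 (ENSMUSG00000015619, chromosome 2 from 9857078 to 9890034, minus strand) was at 41.2, 43.8 and 48.8 CPM in mLN and at 28.6, 32.7 and 34.6 CPM in spleen. Every mLN library was above every spleen library. Gata3 rose 1.39-fold (log2 0.48, standard error 0.11, adjusted p = 0.00249, edgeR), and it passed in all 20 alternative settings, with adjusted p-values from 2.98e-05 to 0.0464. Its targets in type 2 helper cells gave little to read. Il4 and Il13 were at 0 in all 6 libraries and Il1rl1 at 0 in the mLN libraries.

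Tox, an HMG-box factor (ENSMUSG00000041272, chromosome 4 from 6686353 to 6991557, minus strand), was at 51.0, 63.2 and 52.7 CPM in mLN and at 33.7, 44.1 and 41.1 CPM in spleen. The lowest mLN library was above the highest spleen library. Tox rose 1.40-fold (log2 0.48, standard error 0.11, adjusted p = 0.00253, edgeR). On median-centred log2 TPM the adjusted p was 0.0629, and over the 20 settings it ran from 2.97e-06 to 0.0629.

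Zbtb7b (ENSMUSG00000028042, chromosome 3 from 89377644 to 89394776, minus strand), the most abundant of the factors per transcript length, was at 282, 276 and 341 CPM in mLN and at 198, 227 and 281 CPM in spleen. Spleen replicate 3 lay within the mLN range, so the tissues overlapped. The log2 fold change of 0.35 (standard error 0.14) did not pass (adjusted p = 0.123, edgeR). Without spleen replicate 3 it was 0.48 and passed (adjusted p = 3.60e-04), whereas with the GC trend removed it was 0.09 (adjusted p = 0.148). It also passed without a filter (2.92e-05) and on each TPM scale (0.00311 to 0.0329). Over the 20 settings the adjusted p ran from 4.79e-13, with the replicate number as a block, to 0.317. The labels do not state that replicate numbers pair the libraries.

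Patz1 (ENSMUSG00000020453, chromosome 11 from 3288874 to 3309083, plus strand) was at 75.8, 85.6 and 96.7 CPM in mLN and at 64.6, 66.6 and 77.6 CPM in spleen. Spleen replicate 3 exceeded mLN replicate 1. The rise of 1.24-fold (log2 0.31, standard error 0.10) passed with an adjusted p of 0.0216 in edgeR's test. That call was lost without mLN replicate 2 (0.0538) or 3 (0.135), and without spleen replicate 1 (0.120) or 2 (0.111). It was also lost with the length trend (0.0578) or the GC trend (0.105) removed, on median-centred log2 TPM (0.148), and at a threshold of 0.01. The adjusted p ran from 2.58e-04 to 0.148 over the settings. The log2 change was 0.20 without mLN replicate 3 and 0.16 with the GC trend removed. Gm12592, a transcript on the opposite strand, overlaps 10.2% of the Patz1 exon sequence and held 405 counts over the 6 libraries against 7656 for Patz1. The strand setting of the counting is not given in the sources used here, so reads in the shared part cannot be told apart.

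Runx1, Runx2, Runx3, Gata3, Zbtb7b and Patz1 reached their highest CPM in the library numbered 3 of each tissue, Runx1 in mLN by less than 1 SD. Among them are the 4 factors whose transcripts are richest in G and C. GC content was 59.6% in Runx3, 53.0% in Gata3, 60.3% in Zbtb7b and 55.5% in Patz1, against 43.2% to 52.2% in the other 6 factors and a median of 49.6% over tested genes. The part of base composition in the replicate spread was not tested beyond the removal of the GC trend given above.

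Rora (ENSMUSG00000032238, chromosome 9 from 68653786 to 69388246, plus strand) was the factor that fell. Its expected counts were 77, 92 and 118 in mLN and 138, 157 and 137 in spleen, or 4.73, 6.91 and 5.85 CPM in mLN and 9.76, 8.92 and 8.54 CPM in spleen. No mLN library reached a spleen library in CPM. Rora was at 0.641 of its spleen level (log2 -0.64, standard error 0.23, adjusted p = 0.0399, edgeR). The call was lost without mLN replicate 1 (0.149) or 3 (0.0764), and without spleen replicate 1 (0.119) or 2 (0.0791). It was also lost without a filter (0.0532), with the GC trend removed (0.0731), on each TPM scale (0.262 to 0.479), and at a threshold of 0.01. With the length trend removed the log2 change was -0.89 and the adjusted p was 0.00738, the lowest in its range.

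Rora is also expressed by memory and regulatory T cells and by innate lymphoid cells. Memory and effector genes fell in 5 of 8 tested cases and summed to between 313 and 327 CPM in mLN and between 458 and 512 CPM in spleen. Regulatory T cell markers summed to between 32.5 and 44.7 CPM in mLN and between 46.7 and 52.8 CPM in spleen, most of it Tnfrsf18. Of 5 tested, Tnfrsf18 fell and the others, Foxp3 among them, did not pass. Innate lymphoid and NK cell markers changed in 0 of 2 tested cases, and their sum was 29.4 to 36.2 CPM in mLN and 31.8 to 45.6 CPM in spleen, most of it Id2. Klrg1 was at 0 in every library, and Il1rl1 and Zbtb16 were at 0 in mLN. The part of such cells in the lower Rora level was not tested.

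Bcl6 (ENSMUSG00000022508, chromosome 16 from 23965052 to 23988852, minus strand) was at 20.1, 23.4 and 19.9 CPM in mLN and at 18.5, 14.5 and 15.6 CPM in spleen. The tissues did not overlap. The log2 fold change of 0.38 (standard error 0.15) did not pass (adjusted p = 0.0617, edgeR). It passed without spleen replicate 1 (log2 0.48, adjusted p = 0.0449) and on log2 TPM without median-centring (0.0135 to 0.0417), in a range from 0.0135 to 0.239 over 20 settings. Follicular helper markers, which go with Bcl6 in helper cells, fell in 2 of 4 tested cases, Sh2d1a and Tnfsf8, and Sostdc1 was at 0 in all libraries. Their sums were 107 to 117 CPM in mLN and 133 to 147 CPM in spleen, most of it Tnfsf8. Cxcr5 averaged 2.12 CPM in mLN and 3.65 CPM in spleen, and Pdcd1 3.25 and 3.20 CPM, and neither passed. B cells also express Bcl6, and their markers were lower in mLN, as given above; the part of either cell type in the Bcl6 level was not tested.

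With the length trend removed 3 of the 9 factors were called higher, Runx3, Gata3 and Tox, against 11.7% of all tested genes. With the GC trend removed 5 were, Runx1, Runx3, Cbfb, Gata3 and Tox, against 18% of all genes.

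**Figure D2:**
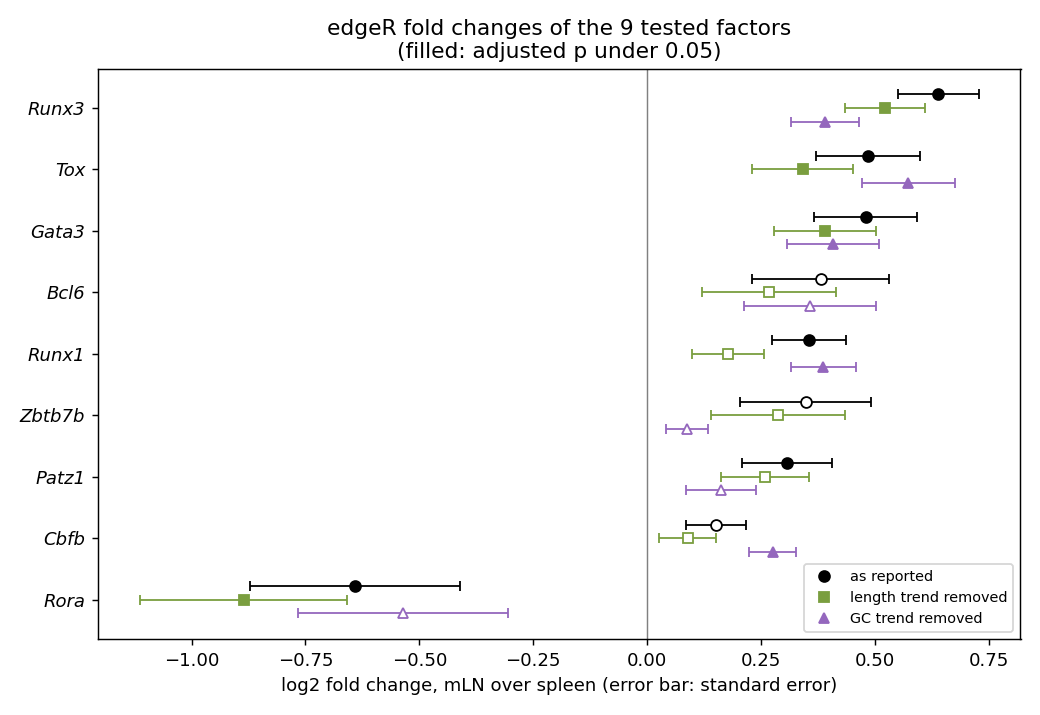
Log2 fold changes, mLN over spleen, of the 9 tested factors in edgeR's test (horizontal axis), as reported and after removal of each library's trend with transcript length or with GC content; bars are standard errors and filled symbols have an adjusted p under 0.05. Rora is the one factor left of 0, and Runx3, Tox and Gata3 stay filled in all 3 versions.

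To compare levels between genes, TPM, which divides counts by transcript length before scaling, was used. The deposited TPM divides by a length estimated in each library, so it was also recomputed with 1 length per gene, a choice made after seeing the data, and the levels that follow are on that scale. Zbtb7b stood highest, at 170 ± 16.5 TPM in mLN and 110 ± 19.9 TPM in spleen (SD, n = 3 each). Cbfb came next at 119 ± 7.58 TPM in mLN and 88.4 ± 3.71 TPM in spleen, followed by Patz1 at 52.1 ± 5.86 TPM in mLN and 34.7 ± 3.58 TPM in spleen. These 3 kept that order in both tissues with no overlap between neighbours.

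Runx3 and Runx1 followed. In mLN Runx3 lay at 35.8 to 39.1 TPM and Runx1 at 30.4 to 31.5 TPM, with no overlap, while in spleen Runx3 at 18.5 to 21.4 TPM overlapped Runx1 at 19.1 to 20.5 TPM. Tox and Gata3 could not be ranked against each other in either tissue, with Tox at 22.1 ± 3.26 TPM in mLN and 12.9 ± 1.65 TPM in spleen and Gata3 at 21.9 ± 1.65 TPM in mLN and 12.9 ± 1.22 TPM in spleen (SD, n = 3 each). Bcl6 was at 9.39 ± 1.16 TPM in mLN and 5.93 ± 0.795 TPM in spleen, Rora at 1.47 ± 0.307 TPM in mLN and 1.88 ± 0.137 TPM in spleen, and Runx2 at no more than 0.337 TPM in any library. On the log2 TPM scale the median change over the tested genes was 0.21 with the deposited values and 0.22 with fixed lengths, and TPM differences between the tissues are to be read relative to it.

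**Figure D3:**
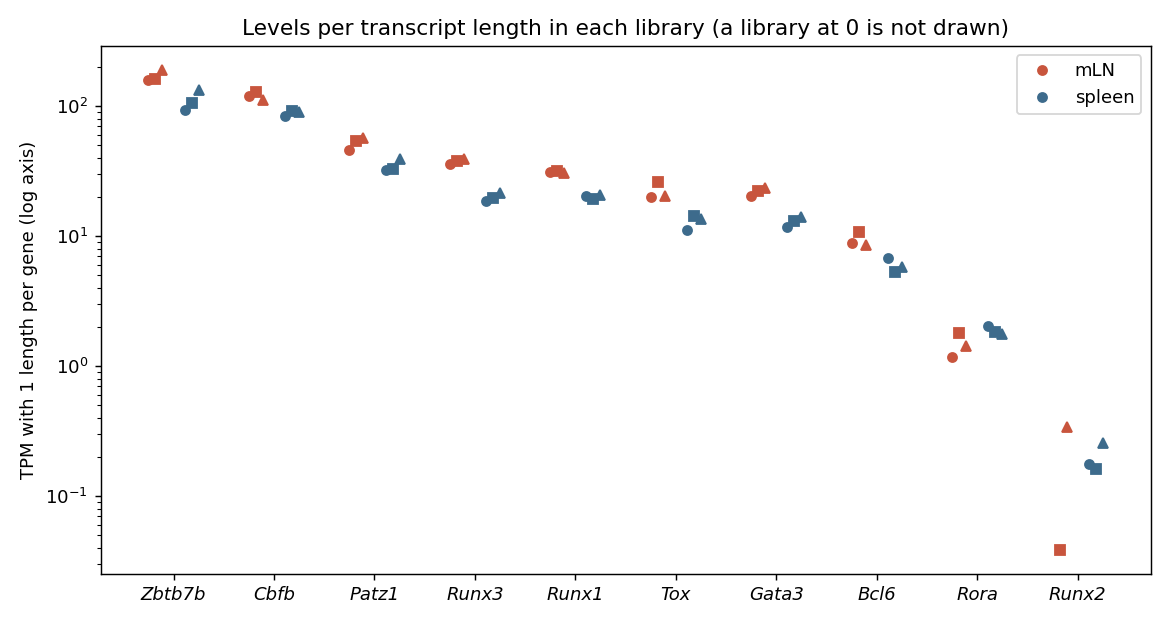
TPM with 1 length per gene (vertical log axis) of the 10 factors in each mLN and spleen library, ordered by the mLN mean; the mLN library with no Runx2 counts is not drawn. Runx3 stands above Runx1 in mLN and level with it in spleen, and Rora and Runx2 lie far below the other 8.

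The ratios that follow use TPM with 1 length per gene. Ratios within a library do not depend on the factor by which that library is scaled. The ratio of Runx3 to Runx1 was 1.15, 1.19 and 1.28 in mLN replicates 1, 2 and 3, and 0.914, 1.03 and 1.04 in the spleen replicates. On this scale the tissues did not overlap. With the deposited TPM they did, at 1.34, 1.04 and 1.45 in mLN and 0.896, 0.790 and 1.32 in spleen. The sum of the 3 Runx genes over Cbfb was 0.558, 0.544 and 0.625 in mLN and 0.462, 0.427 and 0.468 in spleen, without overlap on this scale or in the deposited TPM, and in every library Cbfb transcripts outnumbered those of its partners.

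The ratio of Zbtb7b to Runx3, factors that oppose each other in the lineage choice, was 4.46, 4.31 and 4.84 in mLN and 5.05, 5.38 and 6.19 in spleen. Zbtb7b was more abundant than Runx3 in all 6 libraries on both scales. The lower ratio in every mLN library held on this scale, while the deposited TPM gave overlapping ratios of 4.78, 4.49 and 3.83 in mLN and 5.32, 5.78 and 4.73 in spleen. Gata3 over Runx3 was 0.563, 0.592 and 0.597 in mLN and 0.629, 0.669 and 0.658 in spleen, lower in every mLN library, whereas with the deposited TPM it was 0.563, 0.634 and 0.524 in mLN and 0.647, 0.706 and 0.567 in spleen, with overlap. Gata3 over Zbtb7b was 0.126, 0.137 and 0.123 in mLN and 0.125, 0.124 and 0.106 in spleen, and Zbtb7b over Patz1 was 3.50, 3.02 and 3.32 in mLN and 2.88, 3.20 and 3.40 in spleen. Both of these overlapped between the tissues. These ratios carry no correction for base composition. With the GC trend removed the log2 change was 0.39 for both Runx3 and Runx1, 0.41 for Gata3, 0.28 for Cbfb and 0.09 for Zbtb7b. On that scale Runx3 did not gain on Runx1, nor Gata3 lose to Runx3, while Zbtb7b still changed by less than Runx3. With the length trend removed the log2 changes were 0.52 for Runx3, 0.18 for Runx1, 0.39 for Gata3, 0.09 for Cbfb and 0.29 for Zbtb7b. There Runx3 changed by more than each of the others. The 6 ratios were chosen after the values were seen, and with 3 against 3 libraries an exact permutation test cannot go below p = 0.10, so none was tested.

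**Figure D4:**
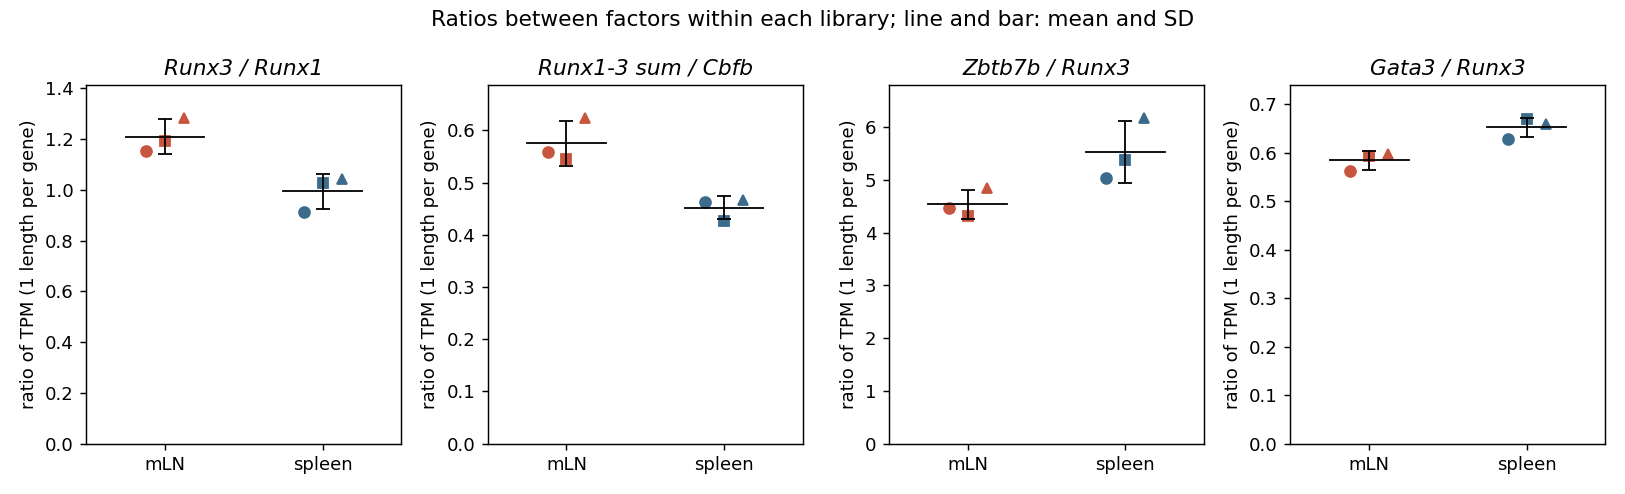
Ratios of TPM with 1 length per gene (vertical axes from 0) between factors of the same library, for 3 mLN and 3 spleen libraries; lines are means and bars are SD. Runx3 over Runx1 and the Runx sum over Cbfb are higher in every mLN library, and Zbtb7b and Gata3 over Runx3 are lower; with the deposited TPM the tissues overlap in all of these but the Runx sum over Cbfb.

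RSEM's mean transcript length, which weights each annotated transcript of a gene by its estimated abundance, reports isoform use apart from the counts. Rora has 6 annotated transcripts of 508 to 10878 nt, and its estimated length was 6418, 3326 and 6813 nt in mLN and 5643, 6441 and 2752 nt in spleen. The shortest estimates, in mLN replicate 2 and spleen replicate 3, gave the highest deposited TPM values of their tissues, 3.25 and 4.10 TPM, against 1.1 and 1.26 TPM in the other mLN libraries and 2.17 and 1.72 TPM in the other spleen libraries. The deposited TPM values of Rora overlapped between tissues whose CPM did not. With 1 length per gene they overlapped as well, at 1.18, 1.79 and 1.43 TPM in mLN and 2.03, 1.83 and 1.77 TPM in spleen.

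The estimated length of Runx1, which has 7 transcripts, was 5059, 4214 and 4484 nt in mLN and 4557, 3728 and 4910 nt in spleen, and that of Runx3 was 3191 to 3827 nt in mLN and 3137 to 3787 nt in spleen. Both overlapped between tissues. The spleen SD of Runx1 was 2.54 TPM in the deposited values and 0.740 TPM with 1 length. Gata3 was at 3215 nt, its longest transcript, in all libraries but mLN replicate 1, at 3125 nt.

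Bcl6 was the 1 factor of 10 whose lengths did not overlap. With 3 against 3 libraries a gene without any difference separates in this way with a probability of about 0.10, so 1 of 10 is near that rate. The share of all genes whose lengths separate was not computed. It has 2 annotated transcripts, of 3525 and 3933 nt, and the estimated mean was 3538, 3548 and 3550 nt in mLN and 3531, 3535 and 3536 nt in spleen. Read as a mixture of the 2, the longer transcript made up 3.18%, 5.74% and 6.13% of Bcl6 transcripts in mLN and 1.38%, 2.47% and 2.61% in spleen. These are small shares of a gene with 251 to 401 counts per library, RSEM's error on them is not in the files, and the difference was not tested.

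**Figure D5:**
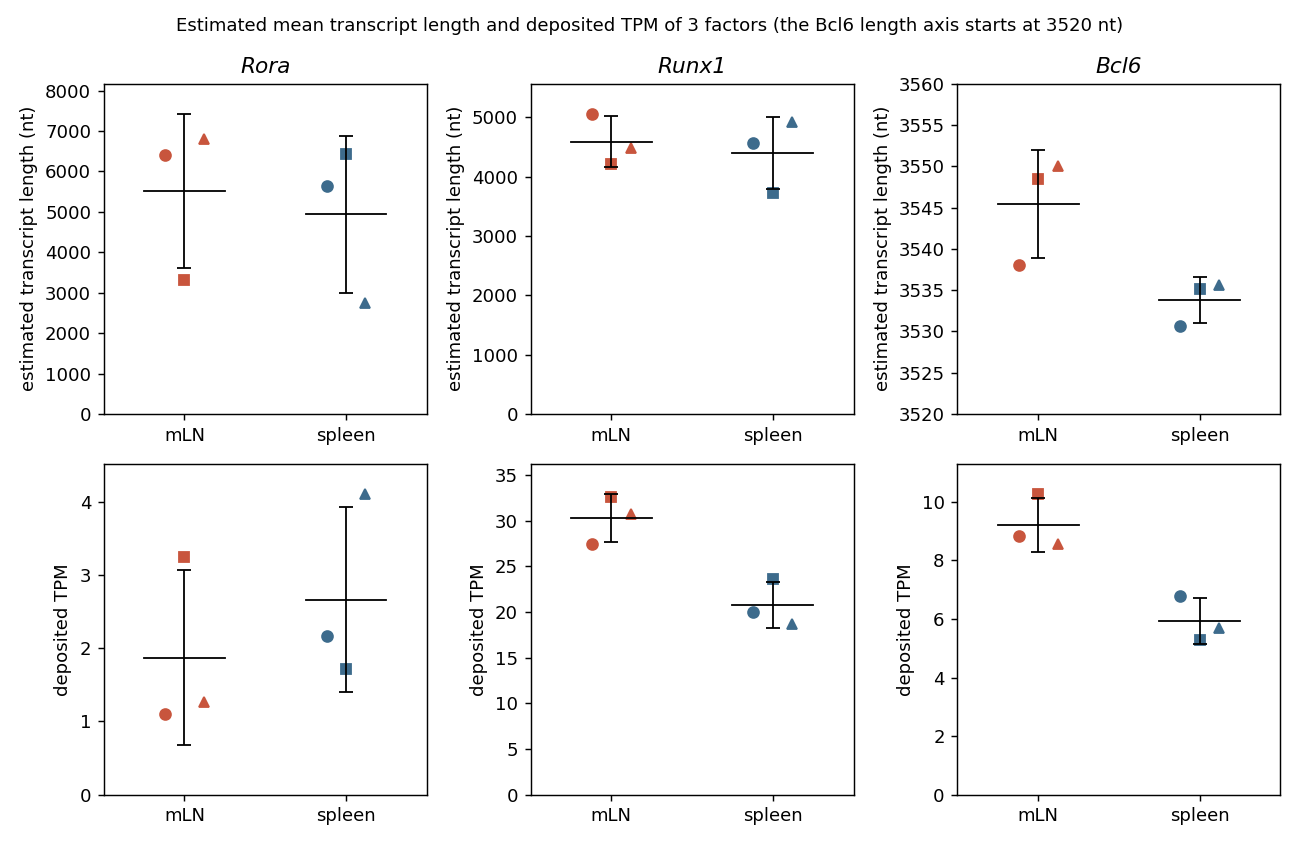
Estimated mean transcript length in nucleotides (top) and deposited TPM (bottom) of Rora, Runx1 and Bcl6 in 3 mLN and 3 spleen libraries; lines are means and bars are SD, and the Bcl6 length axis does not start at 0. The libraries with the shortest Rora estimate in each tissue have its highest TPM, and the Bcl6 lengths are greater in every mLN library by a few nucleotides.

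Other genes of the same pathways were read from 5 lists chosen with earlier results of these data known. Transcripts of proteins that bind Runx factors or serve them as corepressors and coactivators rose in 7 of 13 tested cases and fell in 1, against 16.1% higher and 13.5% lower of all genes, and the list median was 0.31. Tle3, a Groucho corepressor that binds the tail of Runx proteins, was at 289, 290 and 311 CPM in mLN and at 139, 153 and 177 CPM in spleen, a 1.89-fold rise (adjusted p = 3.10e-08, edgeR). The acetyltransferase genes Ep300 and Crebbp rose 1.5-fold each, and Ncor1, a corepressor scaffold, rose 1.32-fold. The member that fell was Cbfa2t3, named after its values were seen.

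Of 18 other genes of the CD4 and CD8 choice, 10 rose and 1, Myb, fell, and the median was 0.42. Of all tested genes 16.1% were called higher and 13.5% lower. Bcl11b, which fixes T cell identity, rose to 537 ± 37.5 CPM in mLN, against 343 ± 43.1 CPM in spleen (SD, n = 3 each), and Chd4, the remodeller of the NuRD complex, was 1.5-fold higher. Ikzf1, encoding Ikaros, was 1.34-fold and Egr1, an immediate early gene induced by the T cell receptor, 1.83-fold higher. With the length trend removed the log2 change of Crebbp was 0.27, against 0.59 before, that of Ep300 was 0.35, against 0.58, that of Bcl11b was 0.41, against 0.64, that of Chd4 was 0.36, against 0.58, and that of Ikzf1 was 0.27, against 0.42. All 5 still passed.

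The other transcription factors of helper subsets rose in 5 of 19 tested cases and fell in 1, with a median of 0.05. The shares over all tested genes were 16.1% higher and 13.5% lower. Stat3, which carries IL-6 signals toward IL-17 producing and follicular helper cells, was 1.71-fold higher (adjusted p = 7.01e-09, edgeR). Bach2, a repressor of effector programs, was 1.56-fold higher and Stat5a, which carries IL-2 signals, 1.38-fold higher. The log2 change of Bach2 was 0.64, and 0.35 with the length trend removed, and that of Stat5a was 0.47, and 0.30 with the GC trend removed, where both passed. Stat4, which carries IL-12 signals toward type 1 helper cells, was at 107, 113 and 100.2 CPM in mLN and at 146, 137 and 129 CPM in spleen, and fell to 0.777 of its spleen level (adjusted p = 0.00110, edgeR). That call was lost on log2 TPM with deposited lengths (0.451) and with fixed lengths (0.520), where the median of all genes is shifted, and held once log2 TPM was median-centred (log2 -0.36, 0.0461), in a range from 2.51e-08 to 0.520. Of the cytokine and receptor genes of helper subsets 7 of 20 could be tested, and Il4ra alone passed, at 1.26-fold (log2 0.33, and 0.19 with the length trend or 0.18 with the GC trend removed, where it passed). Il12rb1 was at 1.63 ± 0.709 CPM in mLN and 3.15 ± 1.15 CPM in spleen, Cxcr5 at 2.12 ± 0.489 CPM in mLN and 3.65 ± 1.04 CPM in spleen, and Il18r1 at 88.4 ± 5.48 CPM in mLN and 81.9 ± 6.08 CPM in spleen (SD, n = 3 each). None of these 3 passed in edgeR's test as reported. Il18r1 passed with the GC trend removed (0.0227) and on log2 TPM without median-centring (0.0132 to 0.0249), in a range up to 0.974. Cxcr5 passed on the deposited log2 TPM scales (0.0363 to 0.0459) but not with fixed lengths (0.266), in a range up to 0.425.

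Relatives of the factors in the Gata, Tox, Ror, Bcl6 and Zbtb families rose in 1 of 6 tested cases, near the 16.1% called higher of all tested genes. That was Zbtb17, encoding Miz-1, at 35.96 ± 2.27 CPM in mLN and 27.1 ± 4.03 CPM in spleen (SD, n = 3 each; log2 0.41, adjusted p = 0.0154, edgeR), whose call was lost without mLN replicate 3 (0.0665) or spleen replicate 2 (0.133), with the GC trend removed (0.248), on the deposited TPM scales (0.0562 to 0.241) and at a threshold of 0.01, in a range from 0.00112 to 0.248. Zbtb7a, the closest relative of Zbtb7b, had a log2 fold change of 0.43 and an adjusted p of 0.0708, and like Zbtb7b it passed without spleen replicate 3 (log2 0.60, adjusted p = 1.56e-04). It also passed with DESeq2 (0.00493), without a filter (1.37e-05) and on log2 TPM without median-centring (0.00496 to 0.0403), in a range from 1.13e-09 to 0.248, and its log2 change was 0.14 with the GC trend removed. Zbtb1 and Zbtb20 had log2 changes of 0.17 and 0.12 that did not pass and that turned to -0.19 and -0.27 with the length trend removed, where Zbtb20 passed as lower (adjusted p = 0.0105). With the GC trend removed both passed as higher, Zbtb1 at 0.32 (2.72e-04) and Zbtb20 at 0.19 (0.0152), and their adjusted p-values reached 0.525 and 0.844 over the settings. Gata4, Gata6, Tox3, Rorb and Zbtb7c were at 0 in all libraries.

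Across the 6 libraries the genes whose log2 CPM followed Runx3 most closely, out of 8845 named genes with a mean of at least 5 CPM, were Actb, Brd1 and Stk10, with Pearson's r of 1.00 for each to 3 digits. Those closest to Rora were Arl14ep (r = 0.999), Ift46 (0.998) and Suv39h1 (0.996). Brd1 was at 184, 187 and 206 CPM in mLN and 115, 124 and 135 CPM in spleen, and Arl14ep averaged 22.3 ± 2.87 CPM in mLN and 31.4 ± 1.67 CPM in spleen (SD, n = 3 each). These r values are the highest among 8845 genes over 6 libraries, include the difference between the tissues and the depth and base composition that a library's genes share, and are given as a description.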

How the data were processed

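The submitters' processing notes name STAR, RSEM and the mm10 build; no version, annotation release or strand setting is given in the sources used here. The authors deposited, for each library, RSEM's gene-level expected counts without normalization. They also deposited TPM and FPKM values, which per the file headers stand beside a length and an effective length estimated in that library; FPKM was not used. Symbols and coordinates came from gene name tables and GENCODE vM21 (GRCm38), and promoter windows from RefSeq. Of 55487 identifiers 55141 had a symbol. Libraries were made with a directional kit, per the labels' protocols.

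The members and all gene lists were chosen with earlier results of these data known. Expected counts were rounded, filtered with filterByExpr, scaled by TMM and tested with edgeR's quasi-likelihood test (two-sided, tissue as the only term, Benjamini-Hochberg over 12486 genes). Log2 fold changes are mLN minus spleen. Log2 TPM tests used limma with a pseudocount of 1 or 0.1, and the TPM pseudocount makes changes of low genes look smaller. Length and GC trends were removed per library by loess (span 0.3). Named genes were all 10 members, up to 4 genes per pathway list with the smallest p at a mean of at least 1 CPM, and the 3 genes closest to the called members with the largest rise and fall; marker lists are given whole. Replicates of a tissue differed by more than sampling noise (chi-square per degree of freedom 5.58 to 11.3). The gene test and the trend removal were tested on simulated data. Fits used edgeR 4.0.16, limma 3.58.1 and, as an alternative, DESeq2 1.42.0 under R 4.3.3; tables and plots used pandas 2.3.3, numpy 2.4.6 and matplotlib 3.10.9 under Python 3.11.15. TPM with 1 length per gene was added after the data were seen.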

Additional observations from a re-analysis of the deposited data

How the results depend on the processing

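All 9 tested factors kept their direction under each of 20 alternatives (scaling, test, TPM scale, filter, block, trend removal, threshold and left-out libraries). Of the 6 called factors, Runx3 and Gata3 passed on median-centred log2 TPM, where Zbtb7b passed too, giving 3 called, all higher. Those called higher, 5 as reported, were 8 on log2 TPM with a pseudocount of 1 or 0.1 and with fixed lengths, 8 with the replicate number as a block and 3 with the length trend removed. Higher calls over all 12486 genes moved too, from 2010 as reported to 2757 and 2765 on log2 TPM with the 2 pseudocounts. They were 4214 with fixed lengths, 2566 with the block and 1461 with the length trend removed. The 1 called lower became 0 on the TPM scales, with no filter, with the GC trend removed and at a threshold of 0.01. Leaving out 1 library gave 4 to 7 called factors, 4 to 6 higher and 0 to 1 lower.

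Over all genes, 3699 calls (2010 higher, 1689 lower) became 1745 on median-centred log2 TPM (798 and 947). There were 384 lower on log2 TPM, 389 with a pseudocount of 0.1, 4214 higher and 518 lower with fixed lengths, and 1069 lower at a threshold of 0.01. Upper-quartile factors gave 45.3% of calls higher against 54.3%, and log2 TPM 87.8%. Leaving out 1 library gave 2824 to 3680 calls, 1500 to 1970 higher and 1324 to 1710 lower. With the length trend removed the log2 changes of Il18r1, Zbtb1 and Zbtb20 turned to -0.0061, -0.19 and -0.27. The block gave 4706 calls in all and 9 called factors, with Cbfb (0.00638), Zbtb7b (4.79e-13) and Bcl6 (0.0298) added; same-numbered libraries did not deviate together (r = 0.0223, 0.00230 and 0.0652), so the numbers were not taken to pair them. The cause of these shifts was not tested. In the ranges of adjusted p given for single genes, the low ends of Runx1, Runx3, Gata3, Tox, Zbtb7b, Patz1 and Stat4 came from the block. Depth limits what can be read of Runx2, at 0 to 14 counts per library.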
